A study of Mus musculus with 10 samples.

Results

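The *Xlr3*, *Xlr4* and *Xlr5* genes are 9 closely related X-linked genes of the mouse, with 3 copies in each subfamily (*Xlr3a*, *Xlr3b*, *Xlr3c*, *Xlr4a*, *Xlr4b*, *Xlr4c*, *Xlr5a*, *Xlr5b* and *Xlr5c*). They were taken by name from a table of 20325 genes measured by RNA-Seq in murine embryonic stem cells (mESCs). All 9 were present, and all 9 were among the 13201 genes that passed the filter on low values (a level of 1 CPM or more in 2 or more libraries, where CPM are counts per 1000000 counts of the library). The family was chosen by a measured value, the low count of *Xlr3a* in mESCs with mutant H3.3 against those with wild-type (WT) H3.3, so every comparison among the H3.3 lines is given here as a description. The comparison of the DAXX transgene with *Daxx*-/- used other libraries, and it was tested, in a fit whose estimate of the spread comes from all 10 libraries. Earlier results of these data were known when the members and lists were chosen, so this test is not shown to be independent of the choice.

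The 10 libraries came from 5 lines with 2 libraries each. The *Daxx* lines, of strain 129/SvEv, were *Daxx*-/- mESCs and the same cells carrying a WT *Daxx* transgene (*Daxx*-/-;WT). The H3.3 lines, of strain 129 x C57BL/6J, were mESCs lacking the histone variant H3.3 (H3.3 KO) and the same cells with a transgene. This was either WT H3.3, in H3.3 KO;WT, or H3.3 L126A-L130A, as the labels spell a mutant that binds DAXX but does not enter nucleosomes. Transgenes were delivered by lentivirus under an EF1 promoter with puromycin selection, so the rescued lines were also transduced and selected. All cells were grown without feeders with 2 kinase inhibitors and LIF, and nothing in the sources used here says whether a line was 1 clone or whether the 2 libraries of a line came from separate transductions. Tests therefore measure the spread between these libraries.

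XLR proteins take their name from an X-linked gene first described in lymphocytes, and they are related to SYCP3, a structural protein of the axes of meiotic chromosomes. Members of the cluster are known from germ cells, thymus and brain, and *Xlr3b*, *Xlr4b* and *Xlr4c* are known as imprinted genes in the mouse. DAXX is a chaperone that, together with the chromatin remodeler ATRX, deposits H3.3 at heterochromatin and repeats, and ATRX is known to act on *Xlr3b* in mouse brain.

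In GENCODE M21 (build GRCm38, whereas reads were aligned to mm9) the 9 genes lie together on chromosome X between 73074345 and 73292976, in the order *Xlr4a*, *Xlr3a*, *Xlr5a*, *Xlr5b*, *Xlr3b*, *Xlr4b*, *Xlr4c*, *Xlr3c* and *Xlr5c*. *Xlr5b*, *Xlr3b* and *Xlr4b* are on the plus strand and the other 6 on the minus strand. The copies are nearly identical. Aligned longest transcripts of 1 subfamily shared 98.5% to 99.4% of their bases, and the share of 50-base stretches found in no other annotated gene ran from 6.67% in *Xlr3b* to 47.8% in *Xlr4c*. A further 24.7% (*Xlr4c*) to 75.8% (*Xlr3b*) were shared among the 9 genes alone, and the rest also with genes outside the family. The counts of single copies therefore rest on how ambiguous reads were divided, and the sum over the 9 genes rests on it less. The annotated *Xlr5a* model runs through to the end of *Xlr5c*, so on the map it also overlaps every member that follows it in this order.

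The sequence before the start of each gene was read from RefSeq promoter windows of GRCm38.p6, in which all 9 members matched. Promoters are shown for 4 members: for *Xlr3b* and *Xlr3c*, the 2 members that passed the test with DAXX, and for 1 member each of *Xlr4* and *Xlr5*. Each is the 250 bases before the start, 5′ to 3′ on the strand of the gene, and capitals mark the CCAAT box on either strand.
*Xlr3b* (chrX:73191929-73192178, plus strand): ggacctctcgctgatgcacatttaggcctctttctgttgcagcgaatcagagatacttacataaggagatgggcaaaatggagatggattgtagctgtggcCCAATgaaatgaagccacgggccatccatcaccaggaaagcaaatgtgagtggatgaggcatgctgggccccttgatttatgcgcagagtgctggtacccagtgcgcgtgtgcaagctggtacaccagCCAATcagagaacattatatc
*Xlr3c* (chrX:73265391-73265640, minus strand): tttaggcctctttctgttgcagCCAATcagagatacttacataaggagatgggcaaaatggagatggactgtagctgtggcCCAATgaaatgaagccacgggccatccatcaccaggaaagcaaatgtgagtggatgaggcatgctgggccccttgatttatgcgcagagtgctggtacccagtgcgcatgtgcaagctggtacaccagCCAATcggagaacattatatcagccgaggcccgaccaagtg
*Xlr4b* (chrX:73214083-73214332, plus strand): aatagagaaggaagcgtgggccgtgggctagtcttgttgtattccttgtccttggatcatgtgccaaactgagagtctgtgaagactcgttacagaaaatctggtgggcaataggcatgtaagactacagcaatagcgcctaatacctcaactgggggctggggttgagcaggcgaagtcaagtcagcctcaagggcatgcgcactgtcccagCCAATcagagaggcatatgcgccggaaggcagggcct
*Xlr5b* (chrX:73148591-73148840, plus strand): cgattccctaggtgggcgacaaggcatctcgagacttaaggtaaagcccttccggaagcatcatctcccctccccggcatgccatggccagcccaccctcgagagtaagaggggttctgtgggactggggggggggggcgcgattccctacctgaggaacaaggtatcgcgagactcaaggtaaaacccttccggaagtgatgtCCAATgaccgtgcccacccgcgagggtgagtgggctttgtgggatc

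Over windows of 300 bases, from 250 before to 50 after the start, CCAAT on either strand was found in 8 of 9 members and in 37.9% of 27025 promoters. The longest run with a CCAAT box that all 6 *Xlr3* and *Xlr4* windows share, CAGCCAATCAGAGA, was in 15 promoters of the table in all, or 0.0555%, these 6 included. It was picked out after the sequences had been read. Promoters within a subfamily are copies of each other (98.1% identity between *Xlr3b* and *Xlr3c*, and 100% over 255 aligned bases between *Xlr5a* and *Xlr5b*), so these matches are not independent. The 3 *Xlr4* windows also held GCATGCGC, the letters of an NRF1 site, which was in 2.80% of all promoters. The ETS letters CCGGAAG were in the 3 *Xlr4* windows, *Xlr5a* and *Xlr5b*, against 9.12% of all. *Xlr5a* and *Xlr5b* were richest in CG, with 16 each where the median promoter had 7, and they alone held a G-quadruplex pattern (4 runs of at least 3 G with gaps of 1 to 7 bases), which 18.1% of all promoters had. Neither the E-box CACGTG (7.24% of promoters) nor the E2F letters TTCCCGC (4.66%) were in these windows. The *Xlr5c* window starts at another place in its gene and could not be aligned to the other *Xlr5* windows.

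Library totals ran from 15463625 to 21396585 expected counts. The pluripotency genes *Pou5f1*, *Nanog*, *Esrrb*, *Zfp42*, *Sox2* and *Klf4* were high in all 10 libraries, with *Pou5f1* between 928 and 1311 CPM, as the label of embryonic stem cells says. *Daxx* was at 82.5 and 72.8 CPM in *Daxx*-/- and at 206.1 and 205.8 CPM with the transgene, a rise of 1.41 on the log2 scale (SE 0.18, edgeR adjusted p = 0.0212). Since *Daxx*-/- cells still had counts on the gene, as high as those of the H3.3 lines (59.3 to 100.8 CPM), a gene total does not check the deletion. *H3f3a*, one of the 2 genes for H3.3, was at 381.5 to 493.6 CPM in the *Daxx* lines and at 2.84 to 10.9 CPM in all 6 libraries of the H3.3 lines. *H3f3b* was not low in H3.3 KO (508.7 and 719.6 CPM), so its total does not check that deletion either. The Y-linked genes *Ddx3y*, *Eif2s3y*, *Kdm5d* and *Uty* had at most 2 counts in any library of the *Daxx* lines, while *Ddx3y* had 1021 to 3778 counts in the H3.3 lines. The *Daxx* and H3.3 lines thus differed in strain and in Y-linked transcripts as well as in genotype, which cannot be told apart, and levels of these X-linked genes are set side by side across them without a test.

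The family as a whole was most abundant in *Daxx*-/-. The summed level of the 9 genes was 303.1 and 401.8 CPM in the *Daxx*-/- libraries (mean 352.5 ± 69.8 SD, n = 2) and 35.5 and 69.2 CPM with WT DAXX (52.3 ± 23.8, n = 2). Both libraries with DAXX lay far below both without it, by 6.73-fold on the means, by 8.53-fold between the libraries numbered 1 and by 5.81-fold between those numbered 2. In H3.3 KO the sum was 23.6 and 85.0 CPM (54.3 ± 43.4), and with WT H3.3 it was 25.2 and 54.7 CPM (39.9 ± 20.8). These pairs overlapped, and the H3.3 KO libraries differed by 3.60-fold between themselves. With H3.3 L126A-L130A the sum was 6.22 and 3.01 CPM (4.61 ± 2.27), below every other library.

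**Figure D1:**
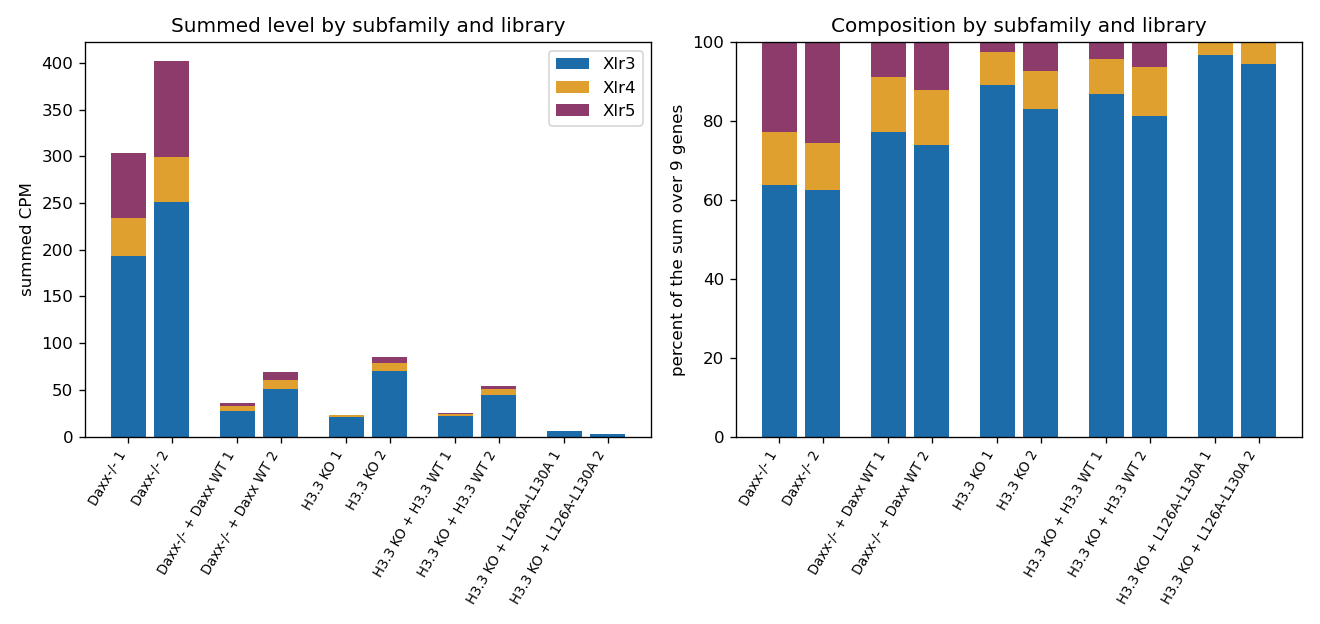
Summed CPM of the *Xlr3*, *Xlr4* and *Xlr5* genes in each of the 10 libraries (left, stacked bars from 0) and the percent of that sum held by each subfamily (right), with libraries named by line and replicate number. The *Daxx*-/- libraries reach 303.1 and 401.8 CPM and no other library exceeds 85.0 CPM, and *Xlr5* takes its largest share in *Daxx*-/-.

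The ratio of the 2 lines was taken for each subfamily as well. With DAXX the sum of the *Xlr3* genes was 5.66-fold lower (222.3 ± 41.1 to 39.3 ± 16.8 CPM), that of the *Xlr4* genes 6.07-fold lower (44.6 ± 4.99 to 7.35 ± 3.34 CPM) and that of the *Xlr5* genes 14.9-fold lower (85.5 ± 23.7 to 5.74 ± 3.71 CPM, SD, n = 2 for each). *Xlr5* held 22.7% and 25.5% of the family sum in *Daxx*-/-, 8.78% and 12.1% with DAXX, 2.40% to 7.15% in H3.3 KO or with WT H3.3, and 0% with H3.3 L126A-L130A. Its share was higher in both *Daxx*-/- libraries than in the other 8. The share of *Xlr3* went the other way, from 63.8% and 62.6% in *Daxx*-/- to 77.2% and 73.9% with DAXX and 81.3% to 89.1% in H3.3 KO or with WT H3.3. No test was made of these ratios or shares, and the *Xlr3* genes alone ranged from 3.995-fold to 12.3-fold lower.

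Per kilobase of transcript, which allows levels to be compared between genes, the order of mean levels in *Daxx*-/- was *Xlr3a* (57.3 CPM per kb), *Xlr3b* (42.4), *Xlr3c* (39.0), *Xlr5b* (27.2), *Xlr5a* (20.6), *Xlr4a* (15.8), *Xlr4b* (9.48), *Xlr4c* (9.21) and *Xlr5c* (3.91). *Xlr3b* and *Xlr3c* overlapped between libraries, as did *Xlr3c* and *Xlr5b*, *Xlr5b* and *Xlr5a*, and *Xlr4b* and *Xlr4c*. The other neighbours in this order did not. With DAXX the top of the order was still *Xlr3a* (14.3 CPM per kb) and *Xlr3b* (6.79), and its end was still *Xlr4c* (0.951) and *Xlr5c* (0.327), while *Xlr4a* (3.41) was then above *Xlr3c* (3.18), with overlapping libraries. In H3.3 KO, and with WT H3.3, the 3 *Xlr3* genes led the order (4.81 to 14.2 CPM per kb), and every *Xlr4* and *Xlr5* gene was at or below 1.71 CPM per kb on its mean.

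**Figure D2:**
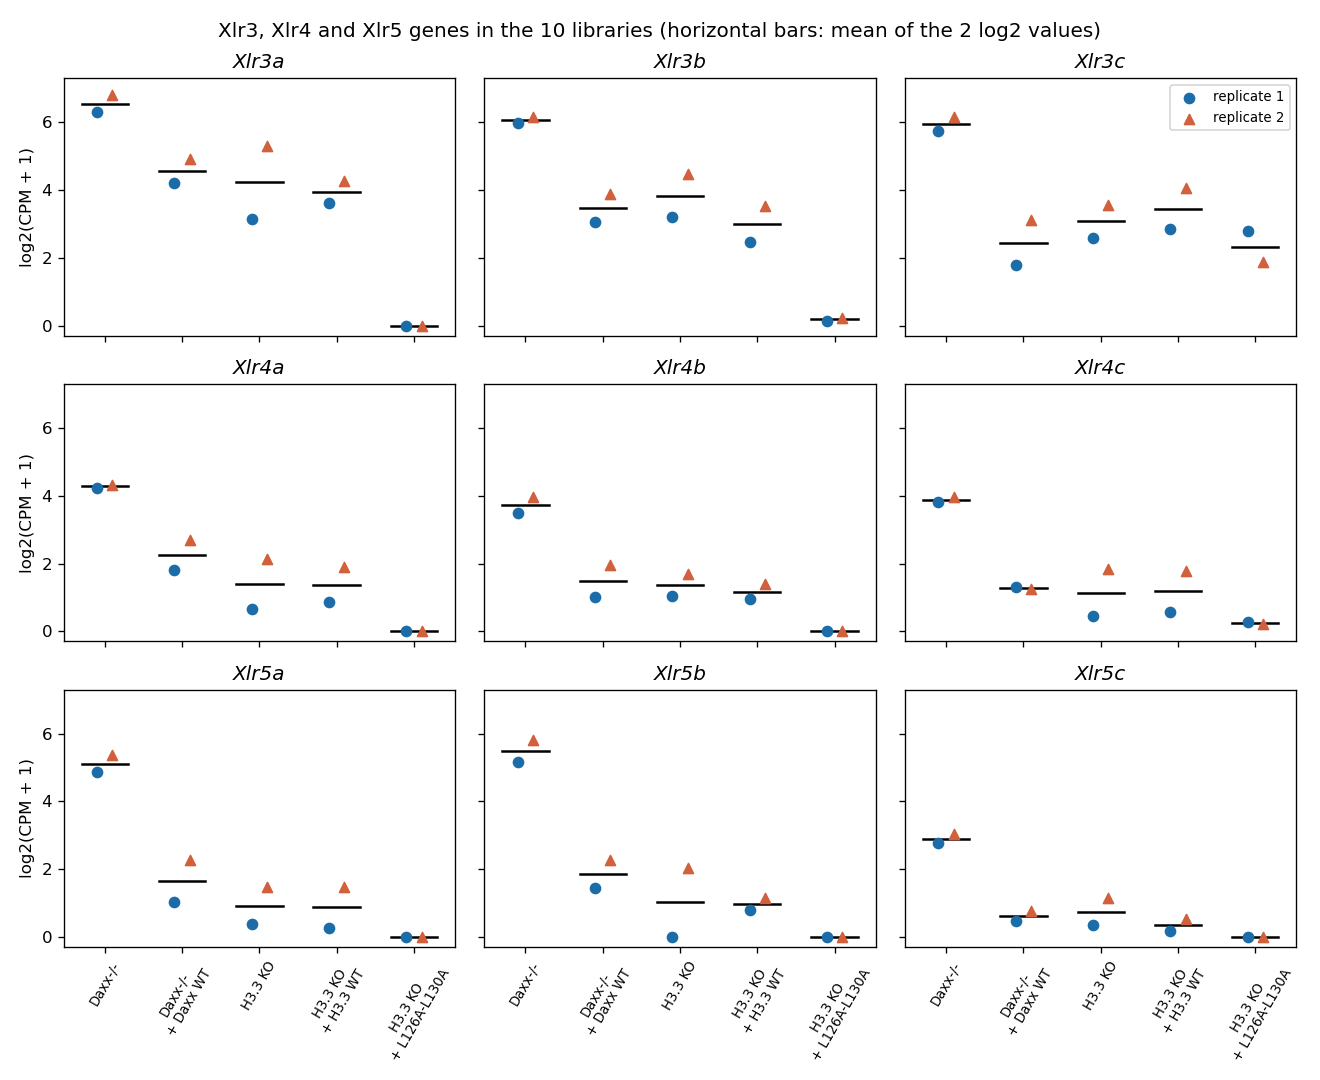
Level of each of the 9 genes as log2(CPM + 1) in the 5 lines, with circles for replicate 1, triangles for replicate 2 and a bar for the mean of the 2 log2 values. Every gene is highest in both *Daxx*-/- libraries, and with H3.3 L126A-L130A *Xlr3c* alone stays clearly above 0.

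In the tested comparison, of *Daxx*-/-;WT with *Daxx*-/-, all 9 genes had a lower fitted level with DAXX, by 2.00 to 4.04 on the log2 scale, and 2 of 9 passed the test (edgeR quasi-likelihood test, adjusted p under 0.05 over all genes and at least 2-fold). Among all genes tested, 0.795% were called lower and 1.08% in either direction. The median fitted log2 fold change was -3.28 over the 9 members and -0.02 over all 13201 genes. All 9 had both DAXX libraries below both *Daxx*-/- libraries, which held for 24.7% of all genes, and all 9 had an unadjusted p under 0.05 with a lower level, which held for 12.4%. Ordered from the most negative fold change, the members ranked between 37 and 319 of 13201. Because the members share reads, these 9 are not 9 independent genes, and *Xlr5c* passed the filter only through *Daxx*-/- and 1 H3.3 KO library, so the filter itself favored a lower value with DAXX for it. In such bulk samples fewer cells that express a gene and less RNA per cell cannot be told apart.

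**Figure D3:**
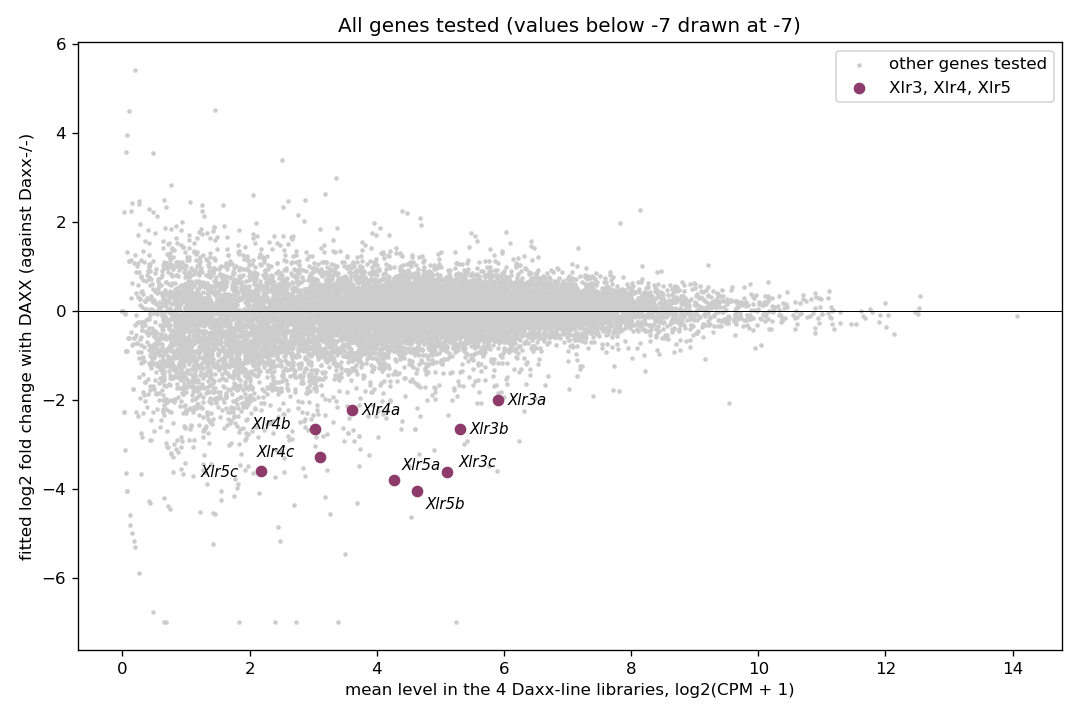
Fitted log2 fold change of *Daxx*-/-;WT against *Daxx*-/- (vertical axis) and mean level in the 4 libraries of the *Daxx* lines as log2(CPM + 1) (horizontal axis) for the 13201 genes tested in grey, with the 9 *Xlr* genes in purple. The members lie between -2.00 and -4.04, below most genes of their level.

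The *Xlr3* genes encode a chromatin protein of the XLR family. *Xlr3b* was at 62.7 and 69.9 CPM in *Daxx*-/- and at 7.34 and 13.9 CPM with DAXX. The libraries did not overlap, and the level fell by 2.64 on the log2 scale (SE 0.52, edgeR adjusted p = 0.0489). *Xlr3c* was at 52.6 and 70.8 CPM and at 2.43 and 7.63 CPM. It fell the most of the 3 copies, by 3.62 on the log2 scale (SE 0.68, edgeR adjusted p = 0.0437), and both *Daxx*-/- libraries were several times higher than either with DAXX. *Xlr3a*, the copy with the highest level, was at 77.9 and 110.7 CPM and at 17.6 and 29.6 CPM. Its pairs were apart as well, but the log2 fold change of -2.00 (SE 0.64, edgeR adjusted p = 0.135) did not pass the test.

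The *Xlr4* genes encode related proteins of the same family, and none of the 3 passed the test. *Xlr4a* was at 17.8 and 19.0 CPM in *Daxx*-/- and at 2.49 and 5.44 CPM with DAXX (log2 fold change -2.22, SE 0.79, edgeR adjusted p = 0.163). *Xlr4b* was at 10.2 and 14.5 CPM and at 1.01 and 2.90 CPM (-2.66, SE 0.61, edgeR adjusted p = 0.0709). *Xlr4c* was at 13.1 and 14.6 CPM and at 1.48 and 1.37 CPM (-3.28, SE 0.84, edgeR adjusted p = 0.0794). The 6 values in *Daxx*-/- lay between 10.2 and 19.0 CPM and the 6 with DAXX between 1.01 and 5.44 CPM.

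*Xlr5a* and *Xlr5b* had the largest fitted differences of the family, and neither passed the test. *Xlr5a* was at 28.0 and 40.1 CPM in *Daxx*-/- and at 1.04 and 3.86 CPM with DAXX (log2 fold change -3.80, SE 0.97, edgeR adjusted p = 0.0870). *Xlr5b* was at 34.9 and 55.1 CPM and at 1.70 and 3.80 CPM (-4.04, SE 1.09, edgeR adjusted p = 0.0978). *Xlr5c*, the lowest member, was at 5.81 and 7.16 CPM and at 0.381 and 0.701 CPM, which are 7.70 and 12.5 counts (-3.59, SE 0.75, edgeR adjusted p = 0.0594). The 3 genes were thus 11.97-fold to 16.4-fold lower on their means, and the 2 DAXX libraries differed by 1.84-fold to 3.72-fold between themselves.

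How many members passed depended on the libraries in the fit. All 10 shared 1 estimate of the spread, and leaving out a library of the *Daxx* lines also changed the means compared. The part of each was not tested. The count of 2 became 6 without *Daxx*-/- replicate 1 and 0 without *Daxx*-/- replicate 2, without either DAXX library or without either H3.3 KO;WT library. It became 1 without any 1 of the other 4 libraries. The calls over all genes moved likewise: the share called lower was 4.79% without *Daxx*-/- replicate 1, 0.314% without *Daxx*-/- replicate 2, at most 0.0914% without a DAXX or H3.3 KO;WT library, and 0.35% to 1.0% without one of the other 4. The direction was the same in every fit. The median log2 fold change over the members ran from -3.64 without DAXX replicate 2 to -3.01 without DAXX replicate 1.

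Summed levels of some marker lists differed along with those of the family. The summed level of 6 germ cell markers (*Ddx4*, *Dazl*, *Stra8*, *Sycp1*, *Sycp3* and *Prdm1*, all in the table and none at 0 in every library) was 135.2 and 174.7 CPM in *Daxx*-/- and 66.6 and 85.9 CPM with DAXX. It was 216.2 and 344.5 CPM in H3.3 KO, 97.5 and 131.1 CPM with WT H3.3, and 28.8 and 58.1 CPM with the mutant. This sum was lower in every rescued line than in its knockout line, as the *Xlr* sum was with DAXX and with the mutant. Much of it was *Dazl*, at 63.8 and 77.8 CPM in *Daxx*-/- and 19.9 and 28.1 CPM with DAXX, and single markers differed: *Ddx4* was at 8.87 and 15.2 CPM and at 16.6 and 13.9 CPM, and *Sycp3* overlapped. The part of these markers in the result was not tested. The 7 of 10 two-cell-like markers in the table summed to 284.0 and 167.7 CPM in *Daxx*-/- and to 306.6 and 209.2 CPM with DAXX, which overlapped. In the H3.3 lines they summed to 470.8 to 562.0 CPM in H3.3 KO or with WT H3.3 and to 337.7 and 322.3 CPM with the mutant. The lower values with the mutant lay in the *Zscan4* genes and *Gm4340*, with *Zscan4f* at 50.2 to 74.1 CPM in the first 4 of these libraries and at 0.253 and 14.0 CPM with the mutant, while *Eif1a* gave most of the rest. The sum of the 5 primed epiblast markers, mostly *Dnmt3b*, went the other way from the *Xlr* sum with DAXX and with the mutant. It was 100.5 and 56.3 CPM in *Daxx*-/-, 157.7 and 107.3 CPM with DAXX, 57.5 to 67.5 CPM in H3.3 KO or with WT H3.3, and 285.5 and 102.9 CPM with the mutant. *Dnmt3b* itself overlapped between *Daxx*-/- (86.4 and 43.9 CPM) and DAXX (144.5 and 83.1 CPM), as did *Fgf5* and *Otx2*. *Pou3f1* was lower with DAXX (2.22 and 4.27 to 1.58 and 1.18 CPM). *T* was at 0.222 and 0.166 CPM in *Daxx*-/- and at 1.09 and 0.224 CPM with DAXX, too low to give a direction. The part of either list was not tested. A sum of 6 fibroblast markers was 27.5 and 40.9 CPM in *Daxx*-/- and 12.4 and 17.3 CPM with DAXX, nearly all of it *Thy1*, while *Col1a2*, *Col3a1*, *Dcn* and *Postn* were at or below 0.333 CPM in every library.

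Within the H3.3 lines, no difference beyond the spread between libraries was seen with WT H3.3. For all 9 genes the libraries without and with WT H3.3 overlapped, and the log2 ratio of means ran from -1.32 (*Xlr5c*) to 0.47 (*Xlr3c*). Among all genes 26.8% were lower in both rescued libraries, and 0.25% were called. *Xlr3a* was at 7.85 and 38.8 CPM in H3.3 KO and at 11.2 and 18.2 CPM with WT H3.3. Here the library of H3.3 KO numbered 2 was the highest of the 4 and that numbered 1 the lowest. Without H3.3 KO replicate 1 the log2 ratio of the family sum was -1.09, and without H3.3 KO replicate 2 it was 0.76. This description therefore rests on single libraries.

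With H3.3 L126A-L130A, 6 of 9 genes had 0 counts in both libraries: *Xlr3a*, *Xlr4a*, *Xlr4b*, *Xlr5a*, *Xlr5b* and *Xlr5c*. Set against H3.3 KO with a floor of 3 counts in the shallower library, *Xlr3a* was at least 115.3-fold lower, *Xlr4a* at least 9.84-fold, *Xlr4b* at least 8.16-fold, *Xlr5a* at least 5.14-fold and *Xlr5c* at least 3.62-fold. These bounds use the mean of unequal libraries. Against H3.3 KO replicate 1 alone they were 38.8-fold for *Xlr3a*, 2.84-fold for *Xlr4a*, 5.28-fold for *Xlr4b*, 1.48-fold for *Xlr5a* and 1.32-fold for *Xlr5c*, and against replicate 2 alone they ran from 5.92-fold (*Xlr5c*) to 191.8-fold (*Xlr3a*). *Xlr5b*, with 0 and 50.1 counts in the H3.3 KO libraries, overlapped the mutant at 0. Intervals and floors here cover counting error only.

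*Xlr3b* and *Xlr4c* were assigned a few counts. *Xlr3b* had 1.42 and 3.25 expected counts with the mutant against 145.0 and 339.8 in H3.3 KO, 107.1-fold lower by level (95% counting interval 40.5 to 294.3). Being fractions, these *Xlr3b* counts include reads divided among genes, and the interval does not cover that division. *Xlr4c* had 3 counts in each mutant library against 6.47 and 41.4 in H3.3 KO, 8.01-fold lower (3.35 to 22.4). Against each H3.3 KO library alone the level was 60.04-fold and 154.2-fold lower for *Xlr3b* and 2.00-fold and 14.0-fold lower for *Xlr4c*, whose mutant counts are at the floor.

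*Xlr3c* stood apart from the other copies. It had 87.8 and 48.8 counts with the mutant, or 5.92 and 2.67 CPM, against 4.98 and 10.9 CPM in H3.3 KO and 6.21 and 15.7 CPM with WT H3.3. It overlapped H3.3 KO, and it was 2.56-fold lower than with WT H3.3, with both mutant libraries below both others. It held 93.1% of the mean family sum with the mutant, against 17.5% in *Daxx*-/-, 9.61% with DAXX, 14.6% in H3.3 KO and 27.5% with WT H3.3. Of the 50-base stretches of *Xlr3c*, 27.9% were in no other annotated gene and 61.1% were shared with other members alone. For *Xlr3a*, which had no count in the same libraries, these shares were 28.3% and 47.5%. The part of divided reads in this difference was not tested.

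Across the family, 7 of 9 genes had both mutant libraries below both H3.3 KO libraries, where 24.2% of all genes did, and 9 of 9 had them below both WT H3.3 libraries, where 23.2% did. Among all genes, 0.788% were called between the mutant and H3.3 KO, and 0.515% between the mutant and WT H3.3. The members were chosen with these libraries, so nothing is read from these counts. The family sum was 11.8-fold lower than in H3.3 KO and 8.66-fold lower than with WT H3.3. By replicate number these ratios were 3.80 and 28.3, and 4.06 and 18.2, so their size rests on which libraries are paired. The 2 comparisons share the mutant libraries.

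The members varied together between the 2 libraries of a line. Replicate 2 had the higher level for 9 of 9 members in *Daxx*-/-, in H3.3 KO and in H3.3 KO;WT, and for 8 of 9 with DAXX, where *Xlr4c* was 0.930 of its level in replicate 1. The family sum in replicate 2 was 1.33, 3.60, 2.17 and 1.95 times that in replicate 1 in these lines, in the same order. With the mutant it was 0.484 times. Among all genes tested, 13.9% were higher in replicate 2 in each of these 4 lines. Over the 10 libraries, the log2(CPM + 1) of each member correlated with that of the sum of the other 8 by Pearson r of 0.749 (*Xlr3c*) to 0.972 (*Xlr3b*). These points share their libraries and, through ambiguous reads, part of their counts.

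The genes whose pattern over the 10 libraries was most like that of the family sum were *Nxf3* (Pearson r = 0.976, Spearman rho = 0.912), *Luzp4* (0.973, 0.976), *Phlpp2* (0.972, 0.939), *Stk31* (0.964, 0.903) and *1700013H16Rik* (0.961, 0.960), taken on log2(CPM + 1). *Nxf3*, *Luzp4* and *1700013H16Rik* are X-linked too. *Nxf3*, of the family of mRNA export factors, had a mean of 25.0 CPM in *Daxx*-/-, 4.84 with DAXX, 6.78 in H3.3 KO, 4.08 with WT H3.3 and 0 with the mutant. It was called lower with DAXX (log2 fold change -2.37, SE 0.41, edgeR adjusted p = 0.0423). *Stk31*, a kinase-like gene of germ cells, was also called lower with DAXX (-1.06, SE 0.18, edgeR adjusted p = 0.0297). These genes were chosen for their likeness over the same 10 libraries, so their levels and calls are a description and support nothing about the family.

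*1700013H16Rik*, which RefSeq also lists under an *Xlr* name, was at 65.1 and 38.8 CPM in *Daxx*-/-, 4.06 and 7.91 CPM with DAXX, 4.02 and 30.7 CPM in H3.3 KO, 1.97 and 8.36 CPM with WT H3.3 and 0 in both mutant libraries. Like the members it was high in both *Daxx*-/- libraries and unequal between those of H3.3 KO, and its log2 fold change with DAXX was -3.12 (SE 0.95, edgeR adjusted p = 0.124). *Xlr*, the gene that named the family, was at 8.49 and 7.99 CPM in *Daxx*-/- and at 1.67 and 2.69 CPM with DAXX (-1.91, SE 0.46, edgeR adjusted p = 0.0727). Unlike most members it was still counted with H3.3 L126A-L130A, at 2.44 and 1.08 CPM. *3830403N18Rik*, which RefSeq also lists under an *Xlr*-like name and which, like *Xlr*, was named here after its values were seen, was at 2.43 and 2.93 CPM in *Daxx*-/- and at 0.161 and 0.281 CPM with DAXX, and its log2 fold change was -3.62 (SE 0.61, edgeR adjusted p = 0.0314). Like *Xlr5c* it passed the filter only through *Daxx*-/- and 1 H3.3 KO library, so this is given as a value and not as a call.

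Among 17 listed relatives and meiotic partners of SYCP3, 8 were tested and 0 were called with DAXX by edgeR, with 4 at an unadjusted p under 0.05 and 3 called lower by DESeq2. Over all genes, 12.4% were lower at an unadjusted p under 0.05, and DESeq2 called 3.01% lower. Their median log2 fold change was -0.81. *Sycp3* itself was at 3.10 and 17.6 CPM in *Daxx*-/- and at 5.50 and 6.96 CPM with DAXX. Its libraries overlapped, and the difference was not detectable (log2 fold change -0.74, SE 0.70, edgeR adjusted p = 0.566). Of 19 genes of H3.3 deposition and DNA methylation, 2 were called, where 1.08% of all genes were. *Daxx* was called higher, as above, and since its transgene was added to these cells, that call follows from the design. *H3f3b* was called lower, from 313.1 and 379.9 to 116.1 and 84.3 CPM (-1.79, SE 0.26, edgeR adjusted p = 0.0244).

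On the chromosome, 3 other tested genes lie between the *Xlr* copies. All 3 had both DAXX libraries below both *Daxx*-/- libraries, which held for 24.7% of all genes, and none passed the test. The genes named here, other than the nearest outer neighbours *Pnma3* and *Zfp275* and the called gene *Dusp9*, were named after their values were seen. *DXBay18*, whose model overlaps the start of *Xlr5b* on the opposite strand, had 190.4 and 214.7 counts in *Daxx*-/- and 0 in both DAXX libraries, at least 66.7-fold lower, though it did not pass the test (edgeR adjusted p = 0.0637). It passed the filter only through *Daxx*-/- and H3.3 KO replicate 2, so the filter itself favored a lower value with DAXX. Reads of *DXBay18* and *Xlr5b* could not be told apart by strand where the 2 overlap. *Gm14685* was at 10.3 and 3.46 CPM and at 1.14 and 2.86 CPM, with log2 fold change -1.78 (SE 0.74, edgeR adjusted p = 0.215). *F8a* was at 3.27 and 6.38 CPM and at 1.88 and 2.08 CPM (-1.28, SE 0.47, edgeR adjusted p = 0.168).

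Outside the cluster, *Pnma3* beside *Xlr4a* was at 17.7 and 11.6 CPM in *Daxx*-/- and at 6.35 and 8.60 CPM with DAXX (-0.97, SE 0.32, edgeR adjusted p = 0.135). *Zfp275* beside *Xlr5c* was at 58.2 and 54.2 CPM and at 55.6 and 52.2 CPM (-0.06, SE 0.15, edgeR adjusted p = 0.841). *Zfp275* overlapped between the lines, and *Pnma3* did not. Of 77 annotated genes within 1 Mb of the outermost members, 45 were in the table and 35 were tested. Only 1 of these 35 was called, *Dusp9*, a phosphatase of MAP kinases, which was lower (-1.30, SE 0.21, edgeR adjusted p = 0.0292), and 1.08% of all genes were. The median of the 35 was -0.07, and 14 had both DAXX libraries below both *Daxx*-/- libraries, where 24.7% of all genes did. Another 13 had both DAXX libraries above both *Daxx*-/- libraries. The share of all genes above was not counted, so nothing is read from the 13. The 14 include the genes that lie between the *Xlr* copies. Among X-linked genes as a whole, 93 of 459 (20.3%) had a fitted level at least 2-fold lower with DAXX, members included, against 1023 of 11452 autosomal genes (8.93%), and the medians were -0.09 and -0.02. The X-linked share was also the larger among the H3.3 lines. It was 10.2% against 4.59% for WT H3.3 against H3.3 KO. For the mutant it was 20.3% against 7.35% relative to H3.3 KO and 15.5% against 5.63% relative to WT H3.3.

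**Figure D4:**
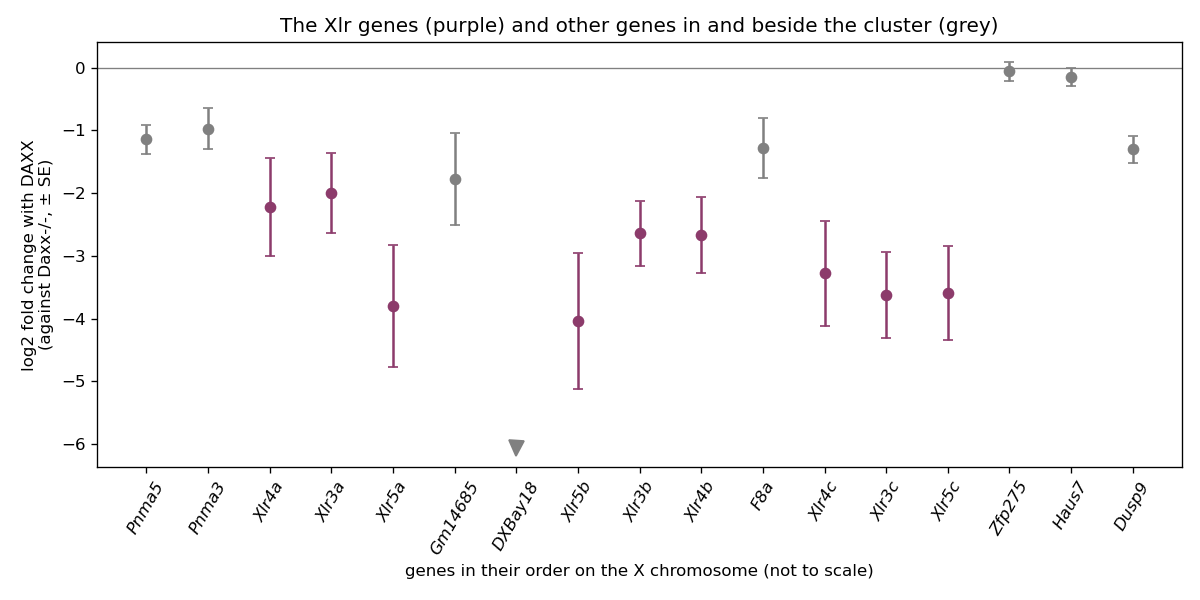
Fitted log2 fold change of *Daxx*-/-;WT against *Daxx*-/- with its SE for the *Xlr* genes (purple) and the other tested genes around them (grey), in their order on the X chromosome and not to scale. The grey triangle is the bound of *DXBay18*, which had 0 counts in both DAXX libraries, and *Zfp275* at -0.06 lies just beyond the last member, *Xlr5c* at -3.59.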

How the data were processed

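PolyA RNA was sequenced from 10 mESC libraries. Per the submitters' processing notes, the authors aligned reads with Bowtie to mm9 and quantified genes with RSEM, which divides ambiguous reads among copies (versions and annotation not given in the sources used here). The deposited values are expected counts, not TPM as the table is titled: they sum to 15463625 to 21396585 per library, and 61.4% to 67.6% of them are whole. They were rounded, a gene was kept if 2 or more libraries reached 1 CPM, and all 10 libraries were fitted in edgeR 4.0.16 (R 4.3.3; quasi-likelihood test, median-of-ratios factors, no block). Calls needed a Benjamini-Hochberg adjusted p under 0.05 over all 13201 genes and at least a 2-fold change. CPM use the same factors. Fold changes are fitted, and other ratios are of mean CPM. Genes at 0 in both libraries were bounded at 3 counts. The script was tested on simulated data. Alternatives used DESeq2 1.42.0, limma 3.58.1, other scaling and filters, a replicate block, and left-out libraries.

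The members and lists were chosen with earlier results of these data known. Whether these included the comparison with DAXX is not stated in the sources used here. Named genes were all members, the 5 genes most like the family sum, list genes called with DAXX, the nearest outer neighbours, *Daxx*, *H3f3a*, *H3f3b* and *Sycp3*, and other genes are said to be named after their values were seen. Gene positions came from GENCODE M21 and promoters from RefSeq, both GRCm38 and matched by symbol. *Xist* and *Tsix* were not analysed here. Within each line, the 2 libraries differed by more than sampling noise. Primitive endoderm markers summed to 5.70 to 22.5 CPM, and their sums overlapped in every comparison.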

Additional observations from a re-analysis of the deposited data

How the results depend on the processing

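All 177 values of single members with DAXX under the alternatives kept their direction. The number of members called lower with DAXX, 2 as reported, was 2 with TMM factors (0.811% of all genes called lower) and with limma on log2(CPM + 0.1) (1.09%). It was also 2 with a mean of at least 5 CPM (1.04%), which left 6 members tested. It was 1 with library size alone (0.636% of all genes called lower), 4 with no filter (1.02%), 5 with DESeq2 (3.01%) and 7 with limma on log2(CPM + 1) (1.43%). It was 0 in edgeR with no abundance trend (0.523%) or with only the 4 libraries of the comparison (0.00802%). In both, 9 of 9 had an unadjusted p under 0.05, but the share of all genes was not counted there. Leaving out 1 library gave 0 to 6. The cause was not tested, but the fit of 4 libraries has fewer samples, and it called 1 gene in all.

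The replicate numbers pair nothing by the labels. Deviations of libraries with the same number correlated by 0.566 for the comparison with DAXX, 0.282 for WT H3.3 against H3.3 KO, 0.0694 for the mutant against H3.3 KO and 0.423 against WT H3.3. With a replicate block 9 of 9 members were called lower with DAXX, where 3.59% of all genes were, against 2 of 9 without the block.

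The family sum kept its direction with DAXX and with the mutant under every setting. Without 1 library its log2 ratio ran from -3.31 to -2.35 with DAXX, from -4.21 to -2.36 for the mutant against H3.3 KO, from -3.73 to -2.45 for the mutant against WT H3.3, and from -1.11 to 0.76 for WT H3.3 against H3.3 KO. Members with every library below ran from 0 to 8 for the last, from 7 to 9 for the mutant against H3.3 KO and stayed at 9 against WT H3.3.

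Neighbours called lower numbered 1 as reported, 3 with DESeq2 and 4 with the replicate block. SYCP3 relatives called lower numbered 0, 3 and 3, in fits that called 3.01% (DESeq2) and 3.59% (block) of all genes lower. Deposition genes called higher numbered 1, 2 with DESeq2 and 1 with the block. These 2 fits called 4.03% (DESeq2) and 4.7% (block) of all genes in either direction. Low counts limit *Xlr5c* and, in the H3.3 lines, all *Xlr4* and *Xlr5* genes, and reads shared among copies limit every single member.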
